A study of Mus musculus with 6 samples.

Results

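Integrin subunits that receive collagen and fibronectin were examined in Thy1+HE- cells sorted from mouse hearts, in 10 genes of the 26458 gene symbols listed. The members were taken by name: the alpha subunits Itga1, Itga5, Itga7, Itga8, Itga9, Itga11 and Itgav and the beta subunits Itgb1, Itgb3 and Itgb5. Each had a row in every library, and all 10 passed the filter on low counts. C57BL/6 mice underwent a sham operation or transaortic constriction (TAC), a surgical narrowing of the aorta that puts the left ventricle under pressure load, and the cells were collected 7 days later, with 3 RNA-seq libraries in each group. No genotype, sex or age is given in the labels, every mouse belongs to the same strain, and the letters HE are not explained. Thy1 is a surface protein found on many cardiac fibroblasts. Nothing says whether a library came from 1 mouse or from several, so p-values cover the spread between these libraries, which may be technical.

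Integrins are receptors made of an alpha and a beta chain that span the cell membrane, hold the cell to its matrix and couple it to the actin cytoskeleton. The alpha chain largely sets which ligand is bound. Itgb1 pairs with most alpha chains listed here, whereas Itgb3 and Itgb5 pair with Itgav. In the heart these receptors let fibroblasts attach to collagen and fibronectin, and those that hold Itgav can also release active TGF-beta from its latent form. Itga7 is best known as a laminin receptor of muscle cells and stands among the members although collagen and fibronectin are not its main ligands. Itga9 binds tenascin C, osteopontin and a variable part of fibronectin.

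Sham libraries held 1909337 to 2056097 gene counts and TAC libraries 3351479 to 4207312. Values are given as CPM, counts scaled to a common library size by TMM, on which 3 counts equal 1.49 to 1.55 CPM for sham and 0.699 to 0.920 CPM for TAC. The members had between 7 and 3340 counts in a library, the lowest in Itgb3. Fibroblast markers were abundant in all libraries, where the 8 markers listed summed to between 16115 and 20978 CPM, with 1 higher and 5 lower in TAC. Libraries numbered 3 stood apart in other cell types: sham replicate 3 had the highest sum of pericyte and of smooth muscle markers, and TAC replicate 3 had the lowest pericyte sum and the highest leukocyte sum. The summed markers of epicardium, cardiomyocytes and platelets overlapped between the groups. Of all 12612 genes tested, 18.7% were called with edgeR's quasi-likelihood test at a Benjamini-Hochberg adjusted p under 0.05, with 8.28% higher and 10.4% lower in TAC. Depth moved with the groups, since 25.4% to 34.1% of matched reads fell on genes in sham and 38.7% to 43.2% in TAC, and its part in the results cannot be told apart from that of the operation.

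After TAC, the beta subunit Itgb5 rose by a factor of 1.72 and the alpha subunits Itga8 and Itga7 fell to 0.513 and 0.541 of their sham level. The call of Itga7 rested on few reads and was lost in 13 of 18 alternative analyses, whereas those of Itgb5 and Itga8 were kept in all 18. The other 7 members were not called, among them the collagen receptor chains Itga1 and Itga11, the fibronectin receptor chain Itga5, and Itgav. Thus 3 of 10 members were called, 1 higher and 2 lower, against 18.7% of all genes tested, with 8.28% higher and 10.4% lower. With 10 members these counts lie too near that background to set the members apart as a set. The groups did not overlap in 3 members, with Itgb5 and Itgb1 higher and Itga8 lower, against 36.2% of all genes tested, with 17.7% higher and 18.5% lower. The median log2 fold change of the members was 0.19, against 0.011 over all genes tested, and the median absolute log2 fold change was 0.28 against 0.33.

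**Figure D1:**
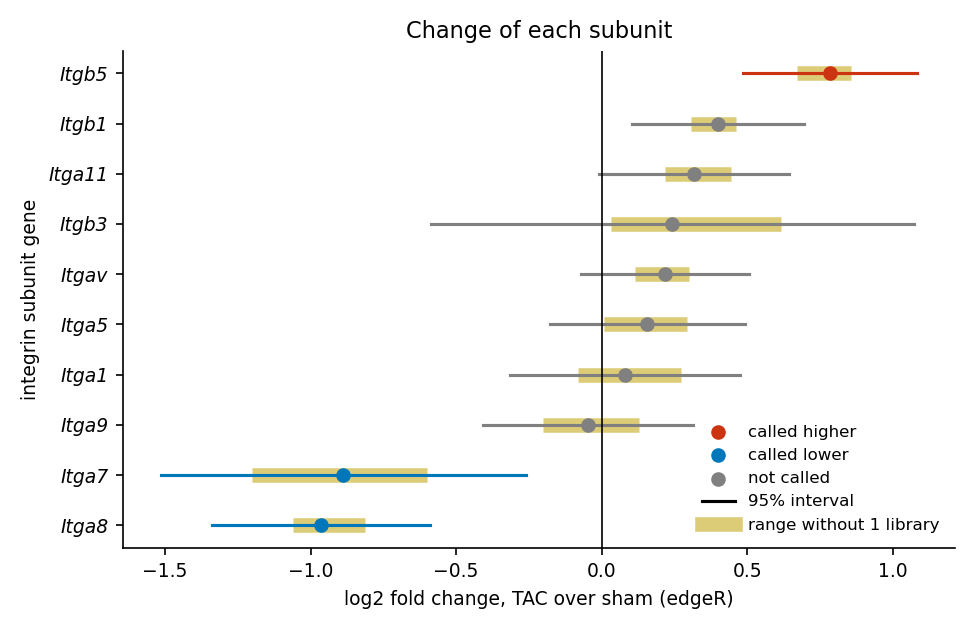
Log2 fold change of each of the 10 subunits, TAC over sham, by edgeR. Points are colored by call, thin lines are 95% confidence intervals, and wide bars span the values obtained when 1 library is left out. Itgb5 lies to the right of 0 and Itga8 and Itga7 to the left, and the bars of Itga1 and Itga9 cross 0.

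Levels of different genes were compared as deposited RPKM, which divides each count by the length of its row. In sham, Itgb1 stood far above the rest with 163.1 ± 20.7 RPKM (SD, n = 3). It was followed by Itga5 with 55.5 ± 8.52, Itgav with 43.4 ± 1.98 and Itgb5 with 33.0 ± 1.30 RPKM. A middle group held Itga9 with 27.3 ± 6.49, Itga11 with 25.6 ± 3.01 and Itga1 with 15.2 ± 1.89 RPKM. The lowest were Itga8 with 11.5 ± 1.31, Itga7 with 5.03 ± 2.21 and Itgb3 with 1.89 ± 0.819 RPKM. The ranges of neighbors in this order overlapped between Itgb5 and Itga9, Itga9 and Itga11, and Itga7 and Itgb3, and these pairs are not ordered beyond their spread. In TAC, Itgb5 reached 56.5 ± 6.18 RPKM, beside Itgav with 50.2 ± 5.46 and Itga5 with 61.4 ± 9.90, and its range overlapped that of both. Among all tested genes, Itgb1 lay at the 96.1 percentile of mean sham RPKM and Itgb3 at the 7.61 percentile. The row lengths of Itga1, Itgb3, Itgav and Itga9 were 36.3%, 45.4%, 54.3% and 70.3% of the transcript with the longest coding sequence in GENCODE M21, and those of the other members at least 96.6%. The RPKM of these 4 genes therefore describes only the part of the transcript that the row covers.

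**Figure D2:**
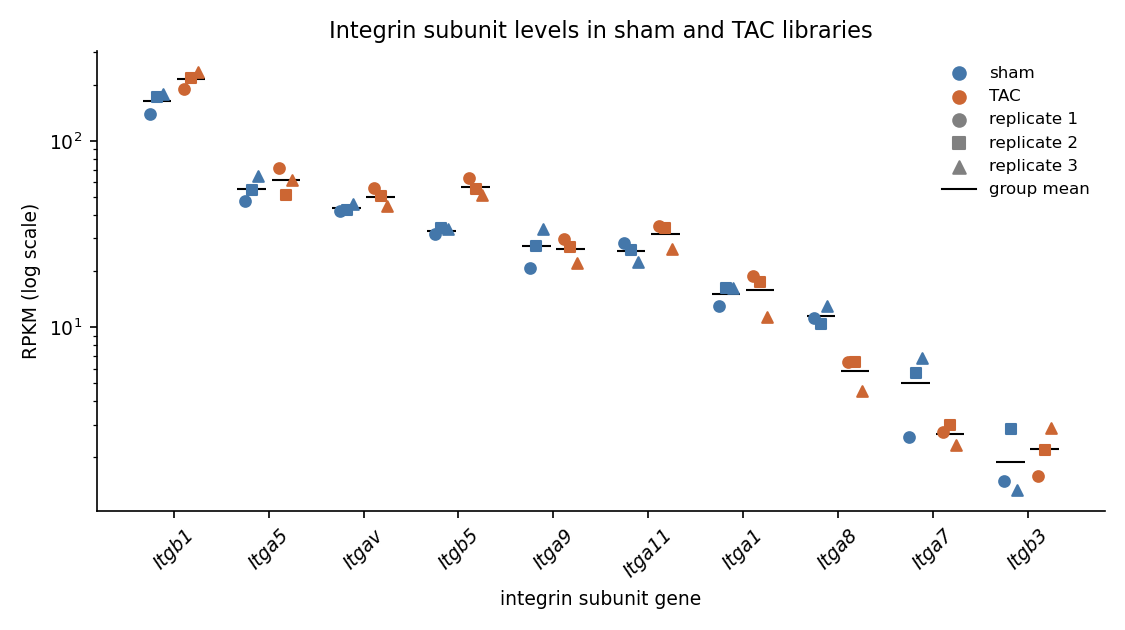
RPKM of the 10 subunits in each library on a log axis, ordered by the sham mean, with sham in blue, TAC in orange, a marker shape for each replicate number and a line at each group mean. Itgb1 is the highest gene in all 6 libraries, between 139.7 and 235.1 RPKM, and Itgb1, Itgb5 and Itga8 show separate groups.

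Among the beta chains Itgb5 rose. It (chromosome 16, 33829665 to 33949338 in GRCm38.p6), which pairs with Itgav in a receptor for vitronectin, had 95.1, 98.4 and 98.2 CPM in sham replicates 1, 2 and 3 and 193.6, 159.0 and 150.7 CPM in TAC replicates 1, 2 and 3. The sham libraries were nearly equal, and every TAC library exceeded all of them. The log2 fold change was 0.79 ± 0.14 (SE), with a 95% confidence interval from 0.49 to 1.08 and an edgeR adjusted p of 0.000978. Leaving out any library kept it called, with log2 fold changes from 0.67 to 0.86.

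The window just before the start of Itgb5 is printed because this gene carries the rise, and that of Itga8 because it carries the fall described further on. Both come from RefSeq on GRCm38.p6, run toward the start site on the gene's own strand, and have the GC box letters GGGCGG, searched on both strands, in capitals. The first spans chr16:33829415-33829664 on the plus strand and the second chr2:12301986-12302194 on the minus strand, where the last 41 bases of the window lie within the gene and are not printed.
Itgb5: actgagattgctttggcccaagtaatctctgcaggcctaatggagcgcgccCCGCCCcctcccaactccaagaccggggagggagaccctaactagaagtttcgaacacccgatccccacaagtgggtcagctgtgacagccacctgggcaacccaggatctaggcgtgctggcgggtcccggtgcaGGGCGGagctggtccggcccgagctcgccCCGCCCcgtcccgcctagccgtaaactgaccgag
Itga8: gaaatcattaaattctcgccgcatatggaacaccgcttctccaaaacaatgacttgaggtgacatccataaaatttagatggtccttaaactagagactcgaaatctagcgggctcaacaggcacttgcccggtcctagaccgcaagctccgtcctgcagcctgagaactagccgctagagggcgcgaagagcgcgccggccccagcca

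The Itgb5 window held 3 GC boxes and the Itga8 window none. The 250 bases before the start held a GC box in 32.7% of 32851 promoter windows, and in 3 of 8 windows matched to members, those of Itgb5, Itga5 and Itgb1. Itgb5 was the only called member among these 3, and a role of the letters was not tested. The median GC content was 61.4% in the 8 windows of members and 52.4% in the windows of all genes. The TEAD letters GGAATG were found before Itgb1 alone, against 12.6% of all windows, and no member's window held CCAAT (33.8% of all), TATAAA (12.4%), the AP-1 letters TGANTCA (6.75%), the RUNX letters TGTGGT (14.0%) or a CArG box (1.47%). The tabled start sites of Itga9 and Itgav lie inside their genes, so their windows do too. Itga7 and Itgb3 had no entry.

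Itgb1 (chromosome 8, 128685654 to 128733579), the chain shared by the collagen, fibronectin and laminin receptors, had 523.7, 615.4 and 651.3 CPM in sham and 722.7, 777.7 and 862.1 CPM in TAC. All TAC libraries lay above all sham libraries. By edgeR the log2 fold change came to 0.40 ± 0.14 and the adjusted p to 0.0570, so the gene was not called, and the 95% interval for the fold ran from 1.07 to 1.62. The call depended on the settings: the adjusted p was under 0.05 in 8 of 18 alternatives, DESeq2 (0.0362) and limma voom (0.0385) among them, and ranged from 0.0152 to 0.164. With the replicate number as a block it was 0.0420.

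Itgb3 (chromosome 11, 104608000 to 104670476), the other partner of Itgav and also the beta chain of the platelet fibrinogen receptor, had 8, 14 and 7 counts in sham and 14, 24 and 25 counts in TAC. In CPM these were 4.01, 7.25 and 3.47 in sham and 4.29, 5.59 and 7.52 in TAC, with overlapping groups. Its fold had a 95% interval from 0.667 to 2.10 (edgeR adjusted p of 0.709), so a rise or fall within that range is not excluded. Itga2b, its platelet partner, had 4 to 9 counts in a library and was too low to test.

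Neither collagen-binding alpha chain was called. Itga11 (chromosome 9, 62677855 to 62783979), a receptor for fibrillar collagen on fibroblasts, had 142.2, 124.3 and 109.1 CPM in sham and 177.3, 163.0 and 127.8 CPM in TAC. TAC replicate 3 lay within the sham range. The log2 fold change was 0.32 ± 0.15 (edgeR adjusted p of 0.162). Leaving out TAC replicate 3 gave 0.44, past the threshold, with an adjusted p of 0.0412, and removing a trend of expression with gene length gave 0.46 and 0.0374. Itga1 (chromosome 13, 114958079 to 115101964), which favors the collagen of basement membranes, had 52.6, 63.2 and 64.0 CPM in sham and 77.6, 67.3 and 45.1 CPM in TAC. Its TAC libraries enclosed the sham range on both sides, and its log2 fold change of 0.08 ± 0.19 was not called (adjusted p of 0.802). The gene Pelo overlaps Itga1 and has a row of its own, and the handling of reads that lie over both is not stated.

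Among the chains that bind fibronectin through the RGD sequence, Itga8 moved and the more abundant ones did not pass. Itga5 (chromosome 15, 103344286 to 103366791), which forms the main fibronectin receptor with Itgb1, had 212.3, 232.1 and 279.8 CPM in sham and 322.1, 218.2 and 267.9 CPM in TAC. The groups overlapped broadly, and the log2 fold change was 0.16 ± 0.16 (edgeR adjusted p of 0.529). Itgav (chromosome 2, 83722303 to 83806917), the chain shared by receptors for vitronectin, fibronectin and latent TGF-beta, had 164.2, 158.5 and 173.1 CPM in sham and 219.6, 187.0 and 170.2 CPM in TAC. Only TAC replicate 3 fell within the sham range, and the difference was 0.22 ± 0.14 in log2 units (adjusted p of 0.289). The 95% intervals of the fold ran from 0.884 to 1.41 for Itga5 and from 0.951 to 1.42 for Itgav, which bounds how far either could have risen or fallen in these libraries.

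Itga8 (chromosome 2, 12106632 to 12301985), the receptor chain for nephronectin that also binds fibronectin, had 65.6, 58.5 and 73.9 CPM in sham and 38.7, 36.6 and 26.2 CPM in TAC. Every TAC library was below every sham library. On the log2 scale the fold change came to -0.96 ± 0.18 (edgeR adjusted p of 0.00116), and it stayed called in all 18 alternatives, where it lay between -1.06 and -0.72. Npnt, which encodes nephronectin, had 2, 7 and 8 counts in sham and 7, 14 and 15 in TAC and was too low to test. In these libraries RPKM of Itga5 exceeded that of Itga8 4.27 to 5.23 times in sham and 7.87 to 13.5 times in TAC, with no overlap (two-sided exact permutation p = 0.1, the smallest that 3 against 3 libraries allow). Since Itga8 fell and Itga5 was not called, this ratio restates the fall of Itga8 and is no separate evidence.

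Itga7 (chromosome 10, 128933421 to 128958286) fell as well, on far fewer reads. It had 21, 43 and 55 counts in sham and 37, 50 and 31 counts in TAC, which are 10.5, 22.3 and 27.3 CPM in sham and 11.4, 11.6 and 9.32 CPM in TAC. Sham replicate 1 lay inside the TAC range, and sham replicates 2 and 3 lay above it. By edgeR its log2 fold change was -0.89 ± 0.30, just past the threshold at an adjusted p of 0.0467. It lost the call in 13 of 18 alternatives, including 5 of the 6 that leave out a library: without sham replicate 3 it was -0.60 (adjusted p of 0.256), without sham replicate 2 -0.81 (0.149), and without TAC replicates 1, 2 and 3 -0.92 (0.0635), -0.95 (0.0784) and -0.79 (0.105). The gene Mettl7b overlaps it and has its own row.

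Itga9 (chromosome 9, 118606709 to 118901003) had 104.1, 132.1 and 164.7 CPM in sham and 150.6, 129.2 and 108.9 CPM in TAC. The groups covered nearly the same range, and the log2 fold change was -0.05 ± 0.17 (edgeR adjusted p of 0.885), with a fold between 0.755 and 1.24 at 95% confidence. Its ligand Tnc was at 33.5 ± 8.65 CPM in sham and 526.6 ± 104 CPM in TAC.

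Smooth muscle cells and other mural cells of vessels are known to carry Itga7 and Itga8, and their markers differed between the libraries. Of 10 pericyte markers 4 fell and none rose. Their sum was 2945, 2743 and 4295 CPM in sham replicates 1, 2 and 3 and 2315, 2009 and 1017 CPM in TAC, lower in every TAC library, and none of the 10 was at 0 in a group. Of 8 smooth muscle markers 2 fell and Tagln rose, while without sham replicate 3 none fell and 3 rose. Tagln lost the call without sham replicates 1 or 2 or TAC replicates 1 or 3, and 1 fell without TAC replicate 3. Their sum was 439.1 to 1045 CPM in sham and 523.2 to 574.6 CPM in TAC, and none of them was at 0 in a group. Of the 8 fibroblast markers 5 fell, to between 0.507 and 0.630 of their sham level, 1 rose and 2 were not called. In bulk libraries, fewer cells of a type and less RNA per cell cannot be told apart. The part of mural or fibroblast markers in the falls of Itga8 and Itga7 was not tested. Without both libraries numbered 3 the log2 fold change was -0.72 for Itga8 (edgeR adjusted p of 0.00695) and -0.50 for Itga7 (0.358). In that fit 4 of 10 pericyte markers still fell, and of 7 smooth muscle markers tested none fell and 3 rose. Leukocyte markers moved the other way, from 23.8 to 82.6 CPM in sham to 86.5 to 287.5 CPM in TAC, with 3 of 6 tested higher. Without sham replicate 2 or TAC replicate 3, 1 was called, and without both libraries numbered 3 edgeR called none, with 2 at an unadjusted p under 0.05. No count of Ptprc, which encodes CD45, was seen in any sham library. TAC replicate 3 had the highest leukocyte sum, and TAC replicates 1 and 2, at 86.5 and 95.7 CPM, also lay above every sham library. Itgb5 was lowest of the TAC libraries in TAC replicate 3, and without that library its log2 fold change was 0.86. The part of leukocytes in the rise of Itgb5 was not tested. The summed endothelial markers were lower in TAC, at 166.5 to 188.5 CPM against 214.3 to 280.3 CPM in sham (1 rose and 1 fell of 6 tested). That sum mostly followed Tek, the marker that fell, at 194.7 ± 4.72 CPM in sham and 95.1 ± 8.78 CPM in TAC. Of the other endothelial markers, Kdr had a lower mean in TAC and all the rest a higher one. Without sham replicate 3, 3 endothelial markers rose; without TAC replicate 2, 2 rose; and without sham replicate 1, 2 fell. Schwann cell markers were lower as well, at 74.9 to 115.0 against 139.7 to 170.6 CPM (1 rose and 5 fell of 6). The number that fell was 2 without sham replicate 2 and 3 without sham replicate 3 or TAC replicate 1, by DESeq2, with upper quartile scaling or with the length offset. Their part in the subunits' values was not tested.

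**Figure D3:**
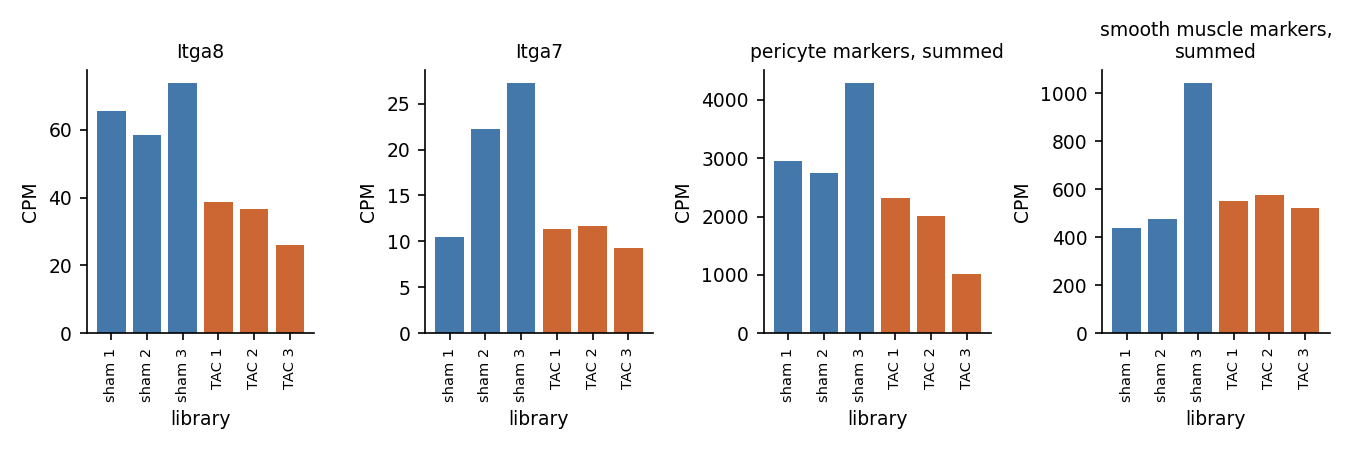
CPM of Itga8 and Itga7 and the summed CPM of pericyte and smooth muscle markers in each of the 6 libraries, with sham in blue and TAC in orange and an axis from 0 in each panel. Itga8 and the pericyte sum are lower in all TAC libraries, whereas sham replicate 1 has an Itga7 level of 10.5 CPM, within the TAC range, and sham replicate 3 has the highest smooth muscle sum, 1045 CPM.

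The make-up of the members' transcript pool was taken from RPKM within each library, and receptor protein was not measured. The rows of Itga1, Itgb3, Itgav and Itga9 cover only part of the transcript, which limits the shares and the sums below. Itga5 made up 30.1 ± 1.60% of the RPKM sum of the 7 alpha members in sham and 31.7 ± 4.32% in TAC (SD, n = 3), and Itgav 22.6% to 25.5% in sham and 25.3% to 26.5% in TAC. Itga8 went from 6.73%, 5.69% and 6.38% in sham replicates 1, 2 and 3 to 2.95%, 3.43% and 2.63% in TAC. It was the only alpha share without overlap between the groups, at an exact permutation p = 0.1 and 0.467 after adjustment over the 7 shares. Itga11 held 14.2 ± 3.04% in sham and 16.4 ± 1.49% in TAC, with overlap, and Itga1 held 8.25 ± 0.579% and 8.12 ± 1.36%. Among the 3 beta members, Itgb1 made up 82.3 ± 1.41% in sham and 78.3 ± 3.45% in TAC, and Itgb5 16.8 ± 1.33% and 20.9 ± 3.63%. The Itgb5 share overlapped between the groups (exact permutation p = 0.2, 0.3 after adjustment over the 3 shares). No share can reach p under 0.05 with 3 against 3 libraries.

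The sum of the 3 beta members was 172.7, 207.9 and 213.4 RPKM in sham and 254.8, 275.5 and 289.0 RPKM in TAC, with no overlap. The sum of the 7 alpha members was 165.7, 182.3 and 202.4 RPKM in sham and 219.4, 190.1 and 172.7 RPKM in TAC, with overlap. The alpha sum was therefore 0.959, 0.877 and 0.948 times the beta sum in sham and 0.861, 0.690 and 0.598 times in TAC (exact permutation p = 0.1, the smallest possible). TAC replicate 3 had the lowest ratio. Itgb1, which was not called, made up 82.3% of the beta sum in sham and 78.3% in TAC. The beta sum, by which the ratio divides, is therefore mostly Itgb1. These sums leave out the alpha and beta chains that are no members. A further ratio, RPKM of Itgb1 over that of Itgb5, was 4.43 to 5.34 in sham and 3.01 to 4.61 in TAC, with overlap (exact permutation p = 0.2). The p-values of the ratios, that of Itga5 over Itga8 among them, were not adjusted for their number.

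**Figure D4:**
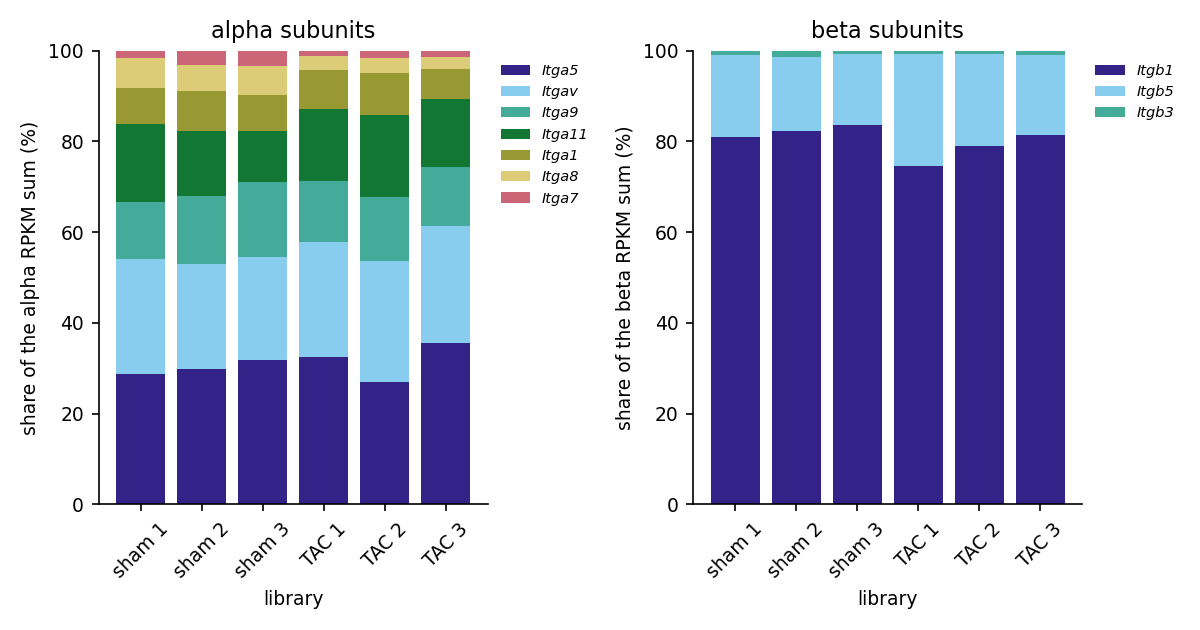
Share of each subunit in the RPKM sum of the 7 alpha members (left) and of the 3 beta members (right) in each library, as stacked bars that add to 100 percent. Itga5 and Itgav are the largest alpha shares in all 6 libraries, the Itga8 band is narrower in TAC, and the Itgb5 band is widest in TAC replicate 1, at 24.8%.

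Of the 16 other integrin subunits, 8 were tested, and edgeR called none, with 3 at an unadjusted p under 0.05 (Itga2, Itga4 and Itgb4). DESeq2 called none either, and limma voom called 1, Itgam. Itga2, a further collagen receptor chain, had 17.0, 13.5 and 12.4 CPM in sham and 6.75, 9.78 and 8.72 CPM in TAC (-0.75 ± 0.27 in log2 units, edgeR adjusted p of 0.0670). Itgb8, a partner of Itgav, was at 20.2 ± 2.97 CPM in sham against 24.7 ± 1.83 in TAC (adjusted p of 0.334). Itga4, which binds fibronectin and Vcam1, had log2 fold change -0.69 ± 0.30 and adjusted p of 0.125. Itgam, a chain of myeloid cells, had 14, 1 and 0 counts in sham and 22, 16 and 35 in TAC. Itga3, Itga6, Itga10 and Itgb4 had adjusted p from 0.136 to 0.990. The highest of the 16 by RPKM was Itgb8, with a mean of 6.54 RPKM in sham, above Itga7 and Itgb3 among the members. Itgb2, the leukocyte beta chain, had at most 13 counts in a library.

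Many genes for the ligands of these receptors rose. Of 24 tested genes for matrix ligands, 15 rose, 3 fell and 6 were not called, where 8.28% of all genes tested rose and 10.4% fell. The ligand list had a median log2 fold change of 0.83, against 0.19 for the members and 0.011 for all genes tested. Fn1, fibronectin, rose from 1036 ± 279 to 5887 ± 643 CPM, a log2 fold change of 2.51 ± 0.20, while its chain Itga5 was at 0.16 ± 0.16. Tnc, tenascin C, rose by 3.97 ± 0.20, while its receptor chain Itga9 was at -0.05 ± 0.17. Tgfb3, a growth factor held in latent form, rose by 1.32 ± 0.14, and Postn, which encodes periostin, by 3.32 ± 0.23. Those that fell were Vtn, vitronectin, with 65.6 ± 3.97 CPM in sham and 22.5 ± 7.25 in TAC, Lama2, a laminin chain, and Ltbp1, which tethers latent TGF-beta. Lama2 lost the call in 4 of the 6 fits that leave out a library, and Vtn and Ltbp1 in none. Vitronectin is the classical ligand of the receptor that contains Itgb5, so the transcripts of this ligand and of its beta chain moved in opposite directions in these libraries. The vitronectin protein around the cells was not measured. Vtn also stands in the pericyte marker list.

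Genes that link integrins to actin were called about as often as genes at large. Of 31 tested genes of the adhesion machinery, 5 rose, 1 fell and 25 were not called. Of all genes tested 18.7% were called, with 8.28% higher and 10.4% lower. With the length offset 8 genes of the list rose, where 977 of 12612 genes rose. The list had a median log2 fold change of 0.04. Actn1, an actin crosslinker, rose from 37.4 ± 3.79 to 146.3 ± 11.2 CPM, and Fhl2, a LIM protein of adhesion sites, from 8.55 ± 3.34 to 35.8 ± 7.85 CPM. Tns3, a tensin, rose by 0.87 ± 0.15 on the log2 scale, Nedd9, a docking protein, by 0.62 ± 0.14 and Vcl, vinculin, by 0.42 ± 0.13. Lims2, a partner of the integrin-linked kinase, fell with -0.67 ± 0.21, a call that DESeq2 did not make. The rise of Vcl and the fall of Lims2 were lost in 5 and 4 of the 6 fits that leave out a library. Tln1, talin, which binds beta chain tails and activates integrins, was at 138.3 ± 10.5 CPM in sham against 173.0 ± 8.26 in TAC and was not called (edgeR adjusted p of 0.0951). Fermt2 (listed as Plekhc1), a kindlin, was at 313.0 ± 38.0 and 238.2 ± 15.6 CPM (adjusted p of 0.0531). Fermt1 had no count in any library, and Fermt3 was not found among the gene symbols. Ptk2, focal adhesion kinase, and Ilk had adjusted p of 0.879 and 0.397.

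Receptors for matrix outside the integrin family moved in both directions. Of 15 tested, 5 rose, 3 fell and 7 were not called, where 8.28% of all genes tested rose and 10.4% fell. Ddr2, a collagen receptor kinase, fell from 203.4 ± 19.4 to 118.4 ± 14.0 CPM. Cd44, the hyaluronan receptor, rose from 114.5 ± 8.68 to 207.7 ± 44.5 CPM, Sdc3, a syndecan, from 103.6 ± 14.7 to 188.7 ± 13.5 CPM, and Mrc2, a receptor that takes up collagen, from 251.4 ± 40.0 to 396.4 ± 40.9 CPM. Hmmr, which is also a mitotic spindle gene, rose by 3.27 ± 0.31 on the log2 scale. Cd47 and Sdc4 fell, with -0.55 ± 0.13 and -0.71 ± 0.17, and Sdc4 lost the call without sham replicate 3 (edgeR adjusted p of 0.0578).

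**Figure D5:**
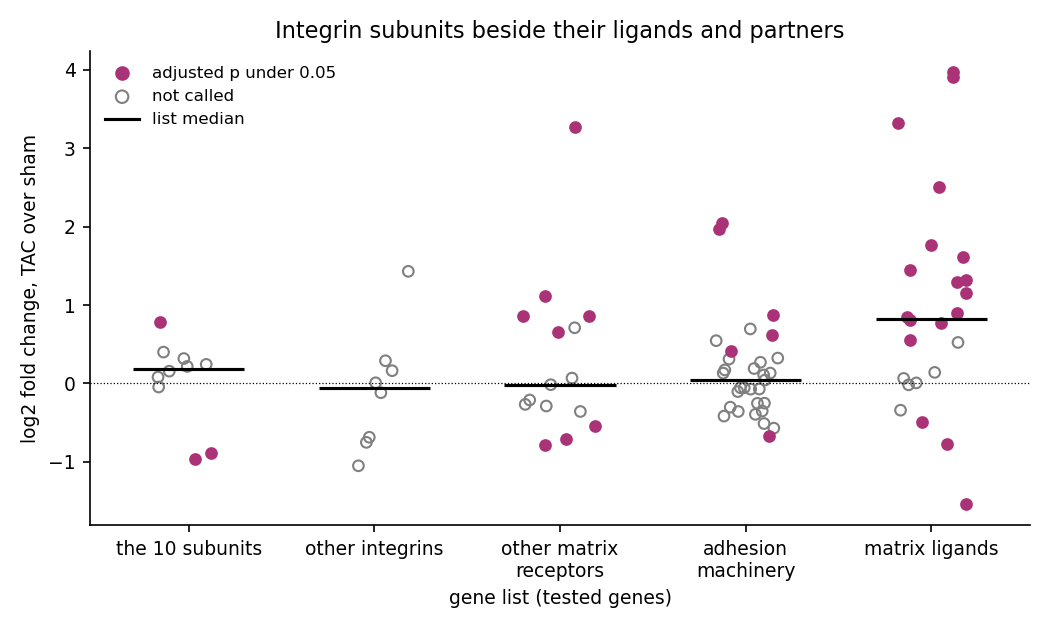
Log2 fold change, TAC over sham, of the 10 subunits and of the tested genes of 4 further lists, with filled points for an edgeR adjusted p under 0.05, open points for genes not called and a line at each list's median. The ligand list has its median at 0.83 and reaches 3.97 for Tnc, whereas the subunits lie between -0.96 and 0.79.

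Genes with a pattern like the 2 most clearly called members were found by the root mean square difference of log2 CPM over the 6 libraries, with each gene centred on its own mean. Nearest to Itgb5 among 12611 other genes were Col27a1, a fibrillar collagen chain, at 0.026, Prssl1 at 0.054 and Creb3l2, a transcription factor of secretory cells, at 0.055, against a median of 0.48 over all genes. Col27a1 rose from 36.9 to 62.5 CPM and Creb3l2 from 306.6 to 515.1 CPM. Nearest to Itga8 were LOC434166 at 0.058, Ddx51 at 0.062 and Thsd7a, a thrombospondin-repeat protein, at 0.064, against a median of 0.59. Thsd7a went from 72.1 to 36.8 CPM. These are the closest of many genes and describe likeness in these 6 libraries only.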

How the data were processed

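RNA from Thy1+HE- heart cells was sequenced in 3 sham and 3 TAC libraries. Read counts and RPKM values per gene were deposited side by side. The submitters' processing notes name Partek 6.6 and the mm10 build, and the header above the deposited values names NextGENe 2.3.3. The sources used here do not give the rule for overlapping genes or strands; 50.6% of reads lay on the forward strand. The authors' RPKM values were used for levels between genes and the authors' counts for tests.

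Rows sharing a symbol were summed (26458 symbols). edgeR 4.0.16 (R 4.3.3) filtered low counts with filterByExpr, scaled by TMM and ran its quasi-likelihood test over 12612 genes with Benjamini-Hochberg adjustment, a gene being called at an adjusted p under 0.05. The fit was tested on simulated data. Each library's gene counts were 1909337 to 4207312, which limits precision for members near the 3-count floor. Single values were compared with a two-sided exact permutation test, whose smallest p is 0.1. Alternatives used limma 3.58.1 and DESeq2 1.42.0, other scalings and filters, RPKM on a log2 scale with a pseudocount of 1 or 0.1, a replicate block, an offset for row length, and libraries left out.

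Positions of all 10 members came from RefSeq on GRCm38.p6, as did promoter windows, matched for 8 of them. Named from each list were the 4 called genes with the smallest adjusted p, all tested integrin subunits, and, for the 2 members with the smallest adjusted p, the 3 genes nearest in centred log2 CPM (prior count of 2). Vtn, Lama2, Ltbp1, Vcl, Lims2, Tln1, Fermt2, Ptk2, Ilk, Mrc2, Cd47 and Sdc4 were named after their values were seen. Members, lists and rules were chosen with earlier results of these data known.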

Additional observations from a re-analysis of the deposited data

How the results depend on the processing

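Itgb5 and Itga8 were called in all 18 alternatives (log2 fold changes of 0.67 to 0.86 and -1.06 to -0.72). Members called higher numbered 2 in place of 1 with upper quartile scaling, DESeq2, limma voom, no low-count filter, at least 10 counts in every library or the replicate block, 3 with the length offset, and 1 to 2 with a library left out. Members called lower numbered 1 in place of 2 with upper quartile scaling, no scaling, DESeq2, voom, either RPKM pseudocount, both libraries numbered 3 left out or the length offset, and 1 to 2 with a library left out. The member added in the first case was Itgb1 under these 7 settings (0.45, 0.40, 0.40, 0.46, 0.43, 0.40 and 0.52) and without TAC replicate 1 (0.31 to 0.46 with a library left out), and Itga11 under the length offset (0.46) and without TAC replicate 3 (0.22 to 0.44 with a library left out). The member lost in the second case was Itga7, at -0.84, -0.89, -0.89, -0.79, -0.64, -0.78, -0.50 and -0.75, and -1.20 to -0.60 with a library left out. Itga9, near 0, changed sign with upper quartile scaling (0.00057), no filter (0.014), both libraries numbered 3 left out (0.24) and the length offset (0.10), and ran from -0.20 to 0.13 with a library left out. Itga1 ran from -0.082 to 0.27 with a library left out, and Itgb3 was -0.16 without both libraries numbered 3. With a library left out, the TAC minus sham difference in share ran from -0.66 to 0.63 percentage points for Itga1, -0.38 to 3.89 for Itga5 and -0.31 to 0.058 for Itgb3. Over all genes, 2353 were called and 1454 to 2261 with a library left out; those higher numbered 1044, 1579 without a filter, and 571 to 997 with a library left out, lowest without sham replicate 2. Beyond the tool or filter itself, the cause was not tested. After each gene's group mean was subtracted, sham and TAC libraries sharing a replicate number correlated at 0.082, 0.025 and -0.086. Those with different numbers correlated between -0.115 and 0.083. These values give no sign that the number pairs libraries, but with 3 libraries in a group they cannot exclude it. With the replicate block 2346 genes were called. Itgb3 and Itga7 had the fewest counts of the members, 7 to 25 and 21 to 55 in a library. The settings for the RPKM ratios and for the counts in gene lists were chosen after seeing the data.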
